A study of Mus musculus with 16 samples.

Results

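The *H2-Mv* genes are nonclassical MHC class I (class Ib) genes that are expressed in the mouse vomeronasal organ (VNO). The 9 members examined here, *H2-M1*, *H2-M9*, *H2-M10.1* to *H2-M10.6* and *H2-M11*, were chosen by their symbols. All 9 were found in every table, among 24407 genes with read counts and 24350 genes with RPKM, reads scaled to gene length and library size. The RPKM are separate values of the authors and not a rescaling of these read counts. The study compared mice of the 4 High Runner (HR) lines, bred for high voluntary wheel running, with mice of 4 unselected Control lines. All lines descend from outbred Hsd:ICR mice. HR lines are numbered 3, 6, 7 and 8, and Control lines 1, 2, 4 and 5. For each line, the VNOs of 3 males were pooled in 1 RNA sample and those of 3 females in another, all from mice 12 weeks of age, which gave 16 libraries. Libraries held 15998552 to 70875276 counts on genes. The members took 0.0539% to 0.136% of them, and a member had between 95 and 26452 counts in a library.

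The VNO detects pheromones through sensory neurons in a basal and an apical layer. Basal neurons express *Vmn2r* receptors with the G protein subunits *Gnao1* and *Gng8*, and a subset of them also expresses 1 or a few *H2-Mv* genes. Like other class I heavy chains, *H2-Mv* proteins pair with beta-2-microglobulin, the product of *B2m*, and *H2-M10* proteins have been found in complexes with *Vmn2r* receptors at the sensory surface. Their groove differs from that of classical class I proteins, which present peptides to T cells.

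All 9 members lie on chromosome 17 between bases 36284227 and 36815564 of GRCm38, a span of 0.531 Mb. The span holds 9 protein-coding genes, and all of them are members. *H2-M10.1* to *H2-M10.4*, *H2-M9* and *H2-M1* are on the minus strand, and *H2-M11*, *H2-M10.5* and *H2-M10.6* on the plus strand. No member overlaps another annotated gene. Each has 5 or 6 exons in the GENCODE annotation.

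The coding sequences of the 6 *H2-M10* genes had 82.9% to 89.6% identical bases in pairs, with a median of 85.9%. *H2-M1* and *H2-M9* had 85.6%, while an *H2-M10* gene and a member outside that group had 63.3% to 69.3%. The 250 bases upstream of the start showed the same groups, with 94.6% identity between *H2-M10.3* and *H2-M10.5* and 92.0% between *H2-M1* and *H2-M9*. The following RefSeq promoter sequences (GRCm38.p6), from base 140 to base 31 before the start and in the direction of the gene, are shown because members that look alike here can be set against members with like levels over lines. Capitals mark the word ACGTCA, the word CCAAT and the word TATAAA in the direction of the gene.
H2-M1 (chr17:36672228-36672337, minus strand): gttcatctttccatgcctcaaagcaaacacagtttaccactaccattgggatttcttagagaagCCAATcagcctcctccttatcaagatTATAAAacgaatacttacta
H2-M9 (chr17:36642675-36642784, minus strand): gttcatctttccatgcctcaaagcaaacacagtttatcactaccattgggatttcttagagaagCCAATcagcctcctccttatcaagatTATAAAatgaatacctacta
H2-M10.3 (chr17:36368448-36368557, minus strand): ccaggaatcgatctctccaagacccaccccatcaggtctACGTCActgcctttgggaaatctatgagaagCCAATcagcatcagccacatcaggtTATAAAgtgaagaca
H2-M10.5 (chr17:36772770-36772879, plus strand): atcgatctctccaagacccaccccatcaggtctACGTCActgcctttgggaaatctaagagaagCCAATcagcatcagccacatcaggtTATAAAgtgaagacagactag
H2-M10.4 (chr17:36462360-36462469, minus strand): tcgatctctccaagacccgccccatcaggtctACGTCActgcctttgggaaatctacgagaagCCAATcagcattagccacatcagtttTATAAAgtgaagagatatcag
H2-M11 (chr17:36546935-36547044, plus strand): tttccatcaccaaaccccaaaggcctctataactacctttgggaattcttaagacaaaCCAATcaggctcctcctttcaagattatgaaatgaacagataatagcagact

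These 3 words were picked after the sequences were read, and were searched on both strands from 250 bases before to 50 bases after each start. CCAAT was found in all 9 members and in 37.4% of 32851 RefSeq windows of this length. TATAAA was found in 7 members, all but *H2-M10.1* and *H2-M11*, and in 13.6% of the windows. ACGTCA was found in *H2-M10.1*, *H2-M10.3*, *H2-M10.4* and *H2-M10.5* and in 7.51% of the windows. Matches of different words did not overlap. The longest word in the upstream bases of at least 5 members was GAGAAGCCAATCAGC, which has CCAAT in its middle. It was found in *H2-M1*, *H2-M9*, *H2-M10.3*, *H2-M10.4*, *H2-M10.5* and *H2-M10.6*, in 0.0213% of the windows, and in no gene outside the family. Since the word was taken from these sequences and the genes are copies of each other, the members are not independent cases.

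The shared sequence also bears on how well reads can be assigned. A read of 75 bases, the read length used, was found in no other gene of the GENCODE transcripts at any position of *H2-M1*, *H2-M9*, *H2-M10.1* and *H2-M11*. In the other members this held for 95.5% (*H2-M10.2*) to 98.7% (*H2-M10.6*) of positions. Among the members, *H2-M10.3* and *H2-M10.5* share the most words of 75 bases. Their longest shared coding stretch has 93 bases within 1 exon. It is shown here because reads inside it could not be counted for either gene.
H2-M10.3 (chr17:36366527-36366619, minus strand) and H2-M10.5 (chr17:36774716-36774808, plus strand): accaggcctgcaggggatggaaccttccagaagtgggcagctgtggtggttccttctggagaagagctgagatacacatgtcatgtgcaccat

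The labelled tissue was checked with marker genes. *Omp*, the marker of mature vomeronasal neurons, had 1266 to 2596 CPM (counts scaled to library size), *Gnao1* had 304.6 to 510.4 CPM and *Gng8* 68.8 to 249.6 CPM. *Trpc2*, the channel of vomeronasal transduction, was listed at 0 counts in all libraries but had 259.3 to 417.3 RPKM in the same libraries, so its counts were not used. The 6 T and B cell markers summed to 1.8 to 8.18 CPM and the 3 olfactory neuron markers to 49.3 to 91.2 CPM. Most of the latter sum was *Adcy3* (44.11 to 74.15 CPM), while *Cnga2* and *Gnal* had medians of 0.12 and 5.52 CPM. The female library of Control line 5 stood apart. It had the fewest counts and the lowest *Omp*, *Gnao1* and *Gng8*. But it had the highest *Vmn2r2* (250.4 CPM), *Vmn2r3* (226.7 CPM), *Vmn2r4* (145.8 CPM) and *Vmn2r7* (210.8 CPM), receptors of basal neurons. In bulk RNA, fewer cells that express a gene and less RNA per cell cannot be told apart.

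Levels of different genes were compared per length, as RPKM averaged over the male and the female library of each line. *H2-M10.3* had 177.8 ± 44.7 RPKM (SD over 8 lines), *H2-M1* 149.6 ± 91.1, *H2-M10.2* 115.3 ± 31.6 and *H2-M10.4* 98.4 ± 44.0. *H2-M10.5* had 76.7 ± 27.1 and *H2-M10.1* 66.6 ± 17.4. Far lower were *H2-M10.6* with 27.5 ± 7.33, *H2-M9* with 26.8 ± 8.06 and *H2-M11* with 11.3 ± 3.06 RPKM. For scale, *Gnao1* had 142.7 ± 18.2 and *B2m* 669.3 ± 99.3 RPKM.

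Neighbours in this order were compared by an exact sign-flip permutation test over lines on log2 RPKM. The order was taken from these same values, so the test can only show which neighbours cannot be told apart. Of the 8 neighbouring pairs, 2 had an adjusted p under 0.05. *H2-M10.1* exceeded *H2-M10.6* by 1.27 ± 0.09 (SE) and *H2-M9* exceeded *H2-M11* by 1.24 ± 0.20 on the log2 scale. Both differences had the same direction in 8 of 8 lines, with the smallest p that 8 lines allow (exact permutation p = 0.00781, Benjamini-Hochberg adjusted p = 0.0313). The 5 neighbouring pairs among the top 6 genes had exact permutation p from 0.0703 to 0.547. Genes that are not neighbours in this order were not compared. *H2-M10.6* and *H2-M9* differed by 0.06 ± 0.18, and their order was turned when females were taken alone. *H2-M10.3* was the highest member in 10 of 16 libraries, *H2-M10.2* in 4 and *H2-M1* in the 2 of Control line 1, while *H2-M11* was the lowest in all 16.

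**Figure D1:**
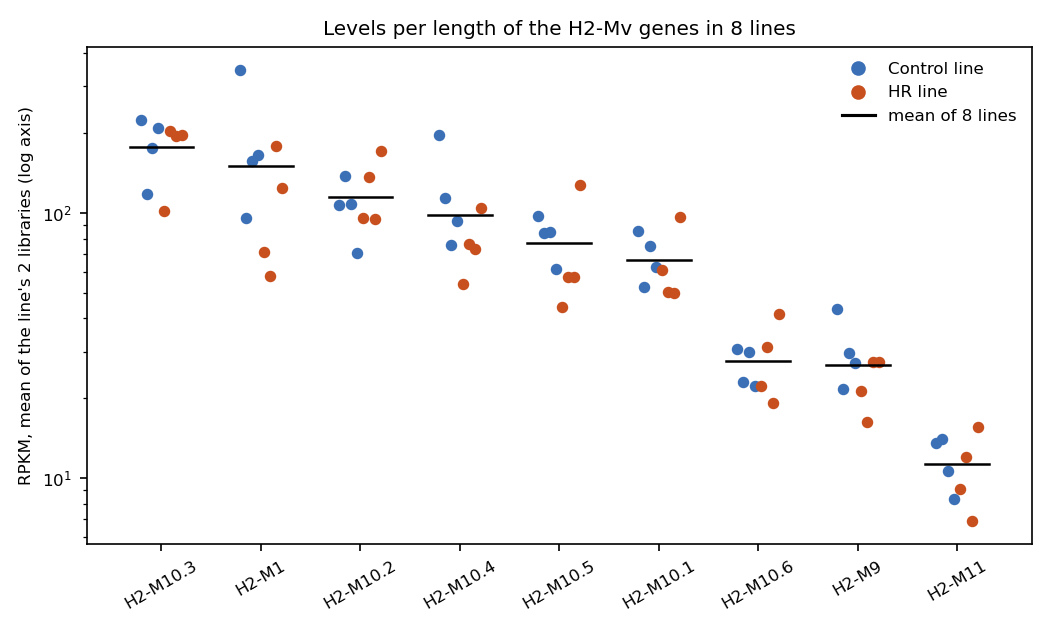
RPKM of the 9 *H2-Mv* genes on a log axis, each point the mean of the male and the female library of 1 of 8 lines and each bar the mean over lines. *H2-M11* lies lowest with a mean of 11.3 RPKM, and *H2-M1* is the most spread out over lines.

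HR and Control lines were then compared, the question of the study. None of the 9 members differed between linetypes at an adjusted p under 0.05 in edgeR's quasi-likelihood test with sex in the model. In the same test 4 of 16507 genes did, or 0.0242%. At an unadjusted p under 0.05, *H2-M1* and *H2-M10.4* were lower in HR lines, 2 of 9 members against 3.3% of all genes. The fitted values of 7 members were negative and of 2 positive. Their median was -0.16 on the log2 scale, against 0.00 over all genes tested.

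*H2-M1* had 315.4, 78.7, 129.5 and 192.0 CPM in males of Control lines 1, 2, 4 and 5, and 318.0, 94.8, 158.3 and 113.6 CPM in females. In HR lines 3, 6, 7 and 8 it had 61.7, 50.7, 153.8 and 122.7 CPM in males and 65.8, 55.1, 174.2 and 106.9 CPM in females. Control line 1 was high and HR lines 3 and 6 were low in both sexes, while the other lines of the 2 linetypes overlapped. The log2 fold change of HR over Control was -0.82 ± 0.35 (SE; edgeR unadjusted p = 0.0316, adjusted p = 0.9997). Without Control line 1 it was -0.38.

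*H2-M10.4* had 191.3, 133.9, 77.3 and 125.6 CPM in males of Control lines 1, 2, 4 and 5, and 173.7, 98.9, 75.8 and 49.2 CPM in females. In HR lines 3, 6, 7 and 8 it had 70.6, 76.8, 70.9 and 122.5 CPM in males and 51.0, 67.0, 67.2 and 95.1 CPM in females. Here too Control line 1 was the highest line, and HR line 8 was above Control line 4 in both sexes. The log2 fold change was -0.57 ± 0.24 (SE; edgeR unadjusted p = 0.0295, adjusted p = 0.9997), and -0.25 without Control line 1.

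The 2 libraries of a line deviated together, so lines were also used as the units. With line sums, the unadjusted edgeR p was 0.108 for *H2-M1* and 0.0534 for *H2-M10.4*. Over line means, HR minus Control was -0.80 for *H2-M1* (exact permutation p = 0.2) and -0.49 for *H2-M10.4* (exact permutation p = 0.171), where 4 against 4 lines cannot give less than 0.0286. No member had an exact p under 0.05 in these 9 tests, and the line means of the 2 linetypes overlapped for every member. Over all genes, 0.8% had linetypes that did not overlap.

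The other members had smaller fitted differences. *H2-M9* stood at -0.38 ± 0.20 (SE, log2), *H2-M10.5* at -0.18 ± 0.24, *H2-M11* at -0.16 ± 0.19, *H2-M10.1* at -0.05 ± 0.18 and *H2-M10.3* at -0.04 ± 0.21. The positive values belonged to *H2-M10.2* with 0.19 ± 0.19 and *H2-M10.6* with 0.12 ± 0.19. *H2-M10.5* also depended on single lines. Without HR line 8 its value was -0.62 (edgeR unadjusted p = 0.000551, adjusted p = 0.356), while without HR line 3 it was -0.03. In the fit without HR line 8, 543 of 16579 genes had an unadjusted p under 0.05. Without HR line 8, the line means of HR and Control no longer overlapped for *H2-M10.5* (-0.60, exact permutation p = 0.0571). The same held for *H2-M10.4* (-0.67, exact permutation p = 0.114). The smallest exact permutation p that 3 against 4 lines allow is 0.0286. The share of all genes whose linetypes did not overlap without this line was not computed. HR line 8 was the highest line of *H2-M10.5* and the highest HR line of *H2-M10.4*. Leaving it out therefore lowers the HR mean in advance, so these values describe the weight of 1 line and are no support for a difference. The signs of *H2-M10.1*, *H2-M10.3* and *H2-M10.6* turned when single lines were left out.

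**Figure D2:**
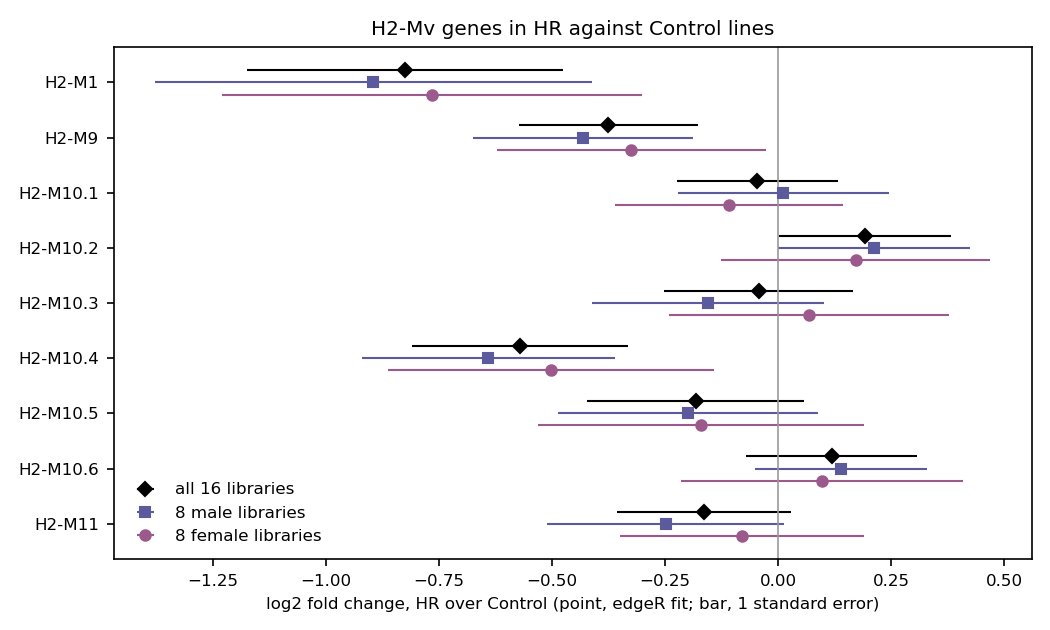
Log2 fold change of HR over Control lines for each *H2-Mv* gene, from edgeR fits to all 16 libraries and to the 8 libraries of each sex, with bars of 1 standard error. *H2-M1*, *H2-M9* and *H2-M10.4* lie below 0 in all 3 fits, and none of the 9 genes passed an adjusted p of 0.05 in any of them.

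The comparison was repeated within each sex. In males, *H2-M1* had a log2 fold change of -0.89 ± 0.48 (SE) and *H2-M10.4* of -0.64 ± 0.28, and in females -0.77 ± 0.46 and -0.50 ± 0.36. No member passed the adjusted threshold of edgeR in males, in females or in the test of the interaction of sex and linetype, and neither did any of the 16361, 16326 and 16757 genes tested (0% in each). At an unadjusted p under 0.05, edgeR gave 1 member in males, *H2-M10.4*, and none in females or for the interaction. Over all genes this count was 184 (1.12%) in males, 316 (1.94%) in females and 77 (0.46%) for the interaction.

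No member passed an adjusted p of 0.05 of edgeR between females and males, while 31 of 16507 genes (0.188%) did. At an unadjusted p under 0.05 there were 0 of 9 members, against 8.08% of all genes. *H2-M10.4* was lower in the female than in the male library of all 8 lines, by 0.03 to 1.35 on the log2 scale, and *H2-M10.2* in all but 1 line. Their log2 fold changes were -0.34 ± 0.24 and -0.29 ± 0.19 (SE). With line as a replicate block, which removes the differences between lines, they were -0.38 ± 0.13 (edgeR unadjusted p = 0.0128, adjusted p = 0.187) and -0.32 ± 0.10 (unadjusted p = 0.0069, adjusted p = 0.152). Again no member passed, against 0.506% of all genes, and these were the 2 members with an unadjusted p under 0.05, against 16.4%. Some neuron markers were lower in females as well. *Gnai2*, of apical neurons, was lower in all 8 lines, with a mean log2 difference of -0.31, against -0.38 for *H2-M10.4* and -0.32 for *H2-M10.2*. The mean was -0.31 for *Gng8*, -0.18 for *Omp* and -0.01 for *Gnao1*. Most basal neuron receptors went the other way, with 0.04 (*Vmn2r3*) to 0.38 (*Vmn2r5*) for *Vmn2r2* to *Vmn2r7*, against -0.06 for *Vmn2r1*. In the edgeR fit, 8 of 12 basal neuron genes had a higher value in females and 4 a lower one. The part of these markers in the differences of the members was not tested. The widest gap of *H2-M10.4* came from Control line 5, and without the female library of this line the value was -0.24. This library had the lowest *Omp*, *Gnao1*, *Gng8* and *Gnai2*, but the highest *Vmn2r2*, *Vmn2r3*, *Vmn2r4* and *Vmn2r7*, receptors of basal neurons. Each table held 1 sex, so sex and the handling of its libraries cannot be told apart.

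The levels were then compared among the 8 lines. All 9 members passed an adjusted p of 0.05 in edgeR's joint test of the lines with sex in the model, where 25.6% of 17181 genes did. At an unadjusted p under 0.05 there were likewise 9 of 9 members, against 42.3% of all genes. The members lie within 0.531 Mb and are not 9 independent cases. The alignment accepted no mismatch, so reads over bases at which a line differs from the reference were lost. A different level and a different sequence of a line therefore cannot be told apart, here or in the line tests of other genes below. *H2-M1* had the smallest adjusted p (0.00029), followed by *H2-M10.1* (0.00245) and *H2-M10.5* (0.00571), and *H2-M11* (0.0458) and *H2-M9* (0.0475) were close to the threshold. When lines were compared only with lines of their own linetype, 8 of 9 members passed, all but *H2-M9* (edgeR adjusted p = 0.0641), against 27.7% of all genes. The calls of *H2-M9* and *H2-M11* were the least stable. *H2-M9* passed under 6 of 13 alternatives and was lost without Control line 1 or 2, without HR line 3, 6, 7 or 8, and among lines of the same linetype, with an adjusted p of up to 0.263. *H2-M11* passed under 8 of 13 and was lost without Control line 1 or 2 and without HR line 3, 7 or 8, with up to 0.13. *H2-M10.4* was lost without Control line 1 (edgeR adjusted p = 0.0974), *H2-M10.3* without HR line 3 (0.0632), and *H2-M10.2* (0.0663) and *H2-M10.6* (0.0769) without HR line 8, which left 5 of 9 members.

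The highest line exceeded the lowest by 2.01-fold (*H2-M10.1*) to 5.99-fold (*H2-M1*) in CPM, with a median of 2.33-fold. Over the 11461 genes with at least 95 counts in every library, the median was 1.33-fold. *H2-M1* lay above 99.2% of these genes, *H2-M10.4* above 96.5% and *H2-M10.1* above 89.1%. The SD of line means was 0.35 to 0.83 on the log2 scale. The corresponding SD of the gap between the libraries of a line, halved to the same scale, was 0.10 to 0.22. Basal neuron genes also varied. *Gnao1* differed 1.43-fold between the highest and the lowest line, and *Gng8* 1.93-fold. The receptors *Vmn2r1* to *Vmn2r7* ran from 1.40-fold (*Vmn2r2*) to 2.43-fold (*Vmn2r5*), with 1.84-fold (*Vmn2r3*) in the middle. Only *Vmn2r1* (2.07-fold) and *Vmn2r5* of these receptors exceeded the lowest fold of a member. Relative to *Gnao1*, the fold between lines was 1.65 for *H2-M10.2*, 2.18 for *H2-M10.5* and 6.35 for *H2-M1*.

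No single line was high or low in all members. HR line 8 had the highest CPM of *H2-M10.1*, *H2-M10.2*, *H2-M10.5*, *H2-M10.6* and *H2-M11*, while Control line 1 had the highest *H2-M1*, *H2-M9*, *H2-M10.3* and *H2-M10.4*. HR line 3 had the lowest *H2-M10.3*, *H2-M10.4* and *H2-M10.5*, HR line 6 the lowest *H2-M1* and *H2-M9*, HR line 7 the lowest *H2-M10.1*, *H2-M10.6* and *H2-M11*, and Control line 5 the lowest *H2-M10.2*. Summed over the members, Control line 1 had 1303 CPM and HR line 8 had 1115 CPM, against 572.1 CPM in HR line 3. The other lines had 779.9 to 901.0 CPM.

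**Figure D3:**
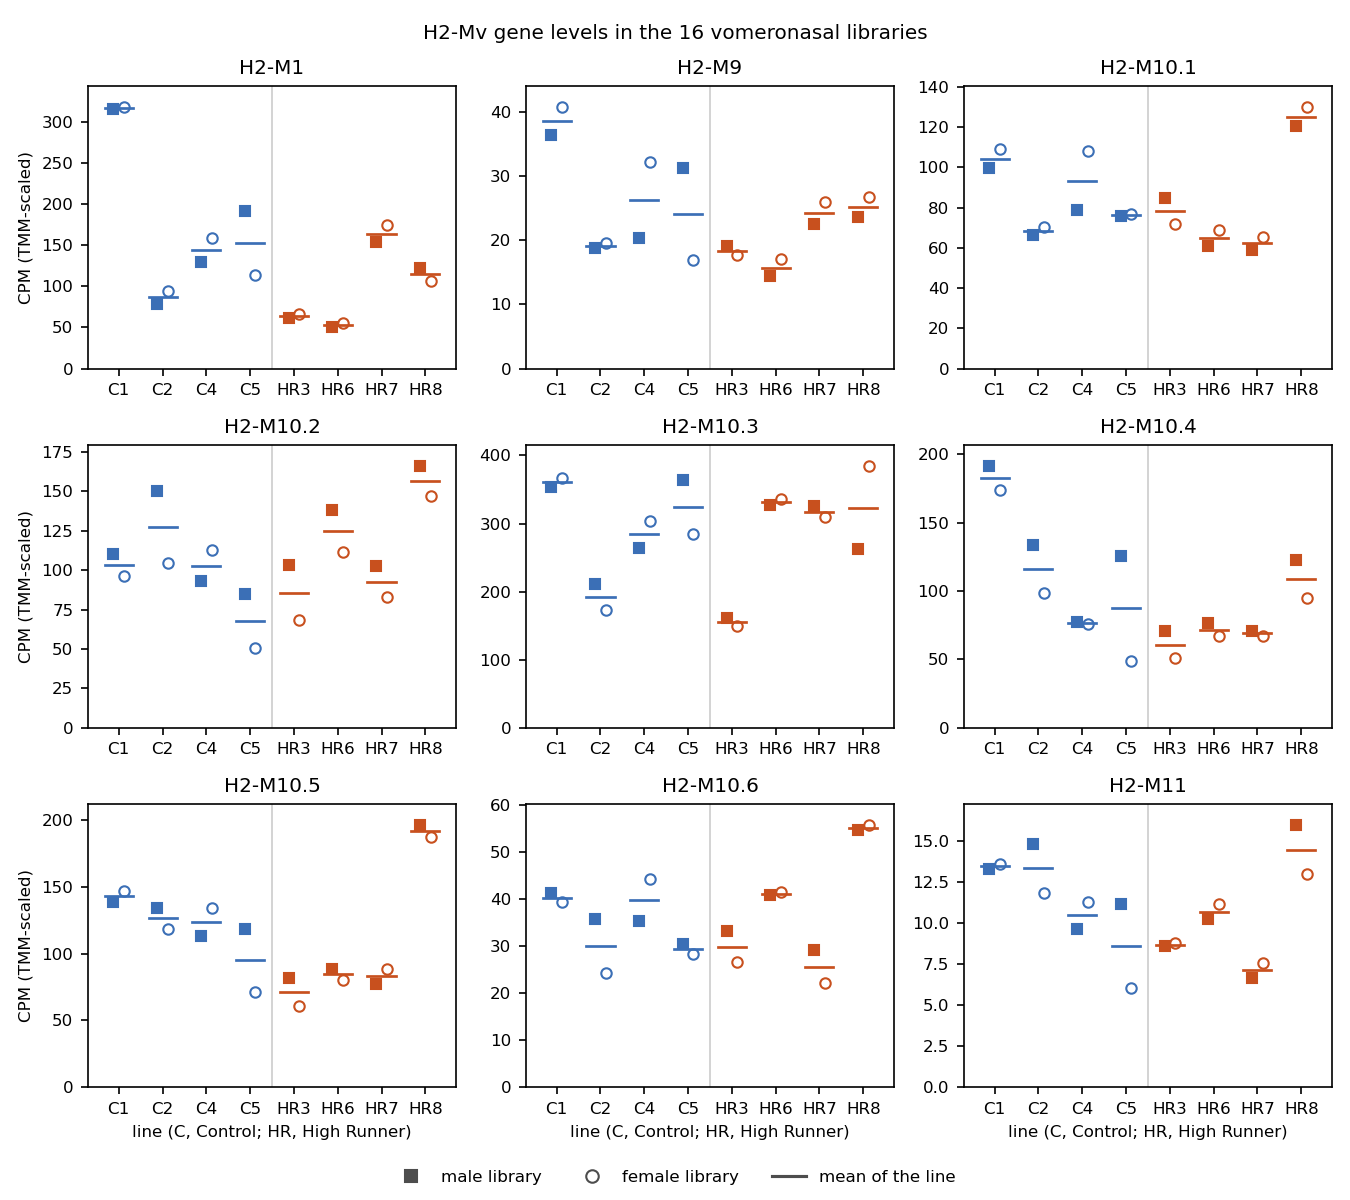
CPM of each *H2-Mv* gene in the male (squares) and female (circles) library of 4 Control and 4 HR lines, on linear axes that start at 0, with a bar at the mean of the line. The 2 sexes of a line lie close together for most genes, and Control line 1 (316.7 CPM) stands far above HR line 6 (52.9 CPM) in *H2-M1*.

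HR line 8 stood out within its linetype in *H2-M10.5*. This line also had the highest line mean of *Omp* (2550 CPM), *Gnao1* (482.9 CPM) and *B2m* (507.6 CPM). Other basal neuron genes were highest elsewhere, such as *Gng8* in HR line 7 (234.2 CPM, against 215.9 CPM in HR line 8). Of the receptors *Vmn2r1* to *Vmn2r7*, only *Vmn2r6* was highest in HR line 8 (180.8 CPM). Relative to *Gnao1*, HR line 8 was still the highest line in *H2-M10.5*, and the part of *Omp* and *B2m* was not tested. *H2-M10.5* had 196.0 CPM in its male and 187.5 CPM in its female library. The males of HR lines 3, 6 and 7 had 81.4, 88.8 and 77.1 CPM and the females 61.1, 80.1 and 88.7 CPM. The Control lines 1, 2, 4 and 5 had 138.9, 134.3, 113.2 and 118.6 CPM in males and 146.7, 118.6, 134.4 and 71.2 CPM in females, between HR line 8 and the other HR lines in all but the female library of line 5.

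*H2-M10.1* and *H2-M10.6* were also highest in HR line 8, in both sexes. *H2-M10.1* had 120.5 CPM in males and 130.1 CPM in females of this line, and 59.0 to 109.0 CPM in the other libraries. *H2-M10.6* had 54.9 and 55.8 CPM, and 22.1 to 44.4 CPM in the other libraries. *H2-M10.2* ranged from 50.6 to 165.9 CPM and *H2-M11* from 6.05 to 15.97 CPM over the 16 libraries, both lowest in the female library of Control line 5.

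*H2-M10.3*, the most abundant member, was low in both libraries of HR line 3, with 161.0 CPM in males and 149.0 CPM in females, and next lowest in Control line 2, with 210.5 and 173.2 CPM. In the other 6 lines it had 262.3 to 363.8 CPM in males and 284.2 to 384.2 CPM in females. The 2 low lines belonged to different linetypes. The alignment accepted no mismatch, so a read over a base at which a line differs from the reference was lost, and a lower level and a different sequence of a line cannot be told apart in these counts.

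The members had different patterns over the lines. *H2-M9* had 36.5, 18.8, 20.3 and 31.2 CPM in males of Control lines 1, 2, 4 and 5, and 40.8, 19.6, 32.2 and 16.9 CPM in females. In HR lines 3, 6, 7 and 8 it had 19.1, 14.4, 22.5 and 23.7 CPM in males and 17.7, 17.1, 26.0 and 26.8 CPM in females. Control line 1 was the highest and HR line 6 the lowest line mean, as for *H2-M1*. Over line means of log2 CPM, r for the 36 pairs of members ranged from -0.22 to 0.96. A single pair, *H2-M1* and *H2-M9*, passed the Benjamini-Hochberg adjustment (r = 0.96, exact permutation p = 0.000719, adjusted p = 0.0259; Spearman's rho = 0.81, exact permutation p = 0.0218, adjusted p = 0.157). Without the 2 lines farthest from the median of *H2-M1*, r was 0.86, and with the mean of each linetype removed it was 0.95. Within males alone r was 0.94 (exact permutation p = 0.000719, adjusted p = 0.0259) and within females alone 0.88 (exact permutation p = 0.00389, adjusted p = 0.0915). The starts of these genes are 30723 bases apart, and their upstream sequences are the near copies shown above. The part of distance or sequence in the like levels of this or any other pair was not tested.

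The pair with the most similar sequences was not the pair most alike in level. *H2-M10.3* and *H2-M10.5*, with the highest upstream and coding identity of all 36 pairs, had r = 0.34 (exact permutation p = 0.414, adjusted p = 0.573; rho = 0.36, exact permutation p = 0.389, adjusted p = 0.622). *H2-M10.5* and *H2-M11*, with 61.5% upstream identity, had r = 0.84 (exact permutation p = 0.0126, adjusted p = 0.138; rho = 0.83, exact permutation p = 0.0154, adjusted p = 0.157), and 0.81 without the farthest lines. With both taken relative to *Gnao1*, r was 0.73 (exact permutation p = 0.0321, adjusted p = 0.369). In males alone this pair passed (r = 0.91, exact permutation p = 0.0027, adjusted p = 0.0487; rho = 0.95, adjusted p = 0.0411), and in females alone it did not (r = 0.76, exact permutation p = 0.0318, adjusted p = 0.127). The median r was 0.41 over the 15 pairs of *H2-M10* genes and 0.56 over the 18 pairs of an *H2-M10* gene with another member, given as a description since pairs share genes and lines.

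**Figure D4:**
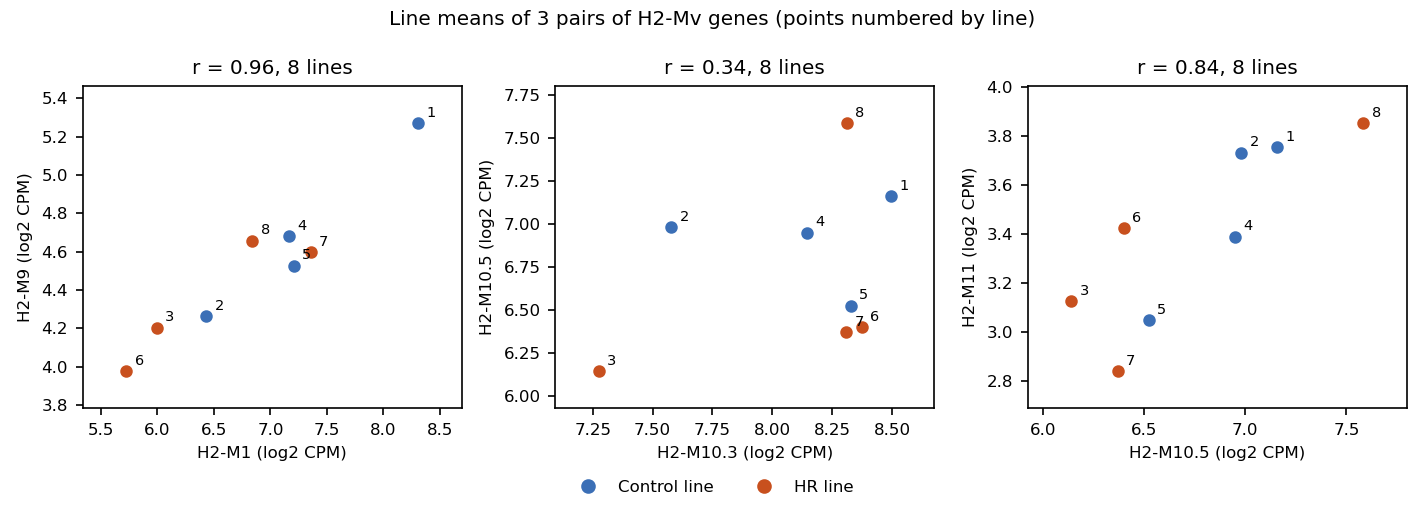
Line means of log2 CPM for 3 pairs of *H2-Mv* genes in 4 Control and 4 HR lines, each point numbered by its line. *H2-M1* and *H2-M9* lie along 1 slope (r = 0.96), *H2-M10.5* varies with little relation to *H2-M10.3* (r = 0.34), and *H2-M11* and *H2-M10.5* have r = 0.84.

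The genes most like each member were searched among 14813 genes with a mean of at least 1 CPM, by r of log2 CPM over the 16 libraries after the mean of each sex was removed. The libraries share lines, depth and tissue composition, so these values are a description. For *H2-M1* and *H2-M9* the closest gene was the other of the pair (r = 0.90). *H2-M10.2* was closest to *Cnpy1* (r = 0.95), *Fzd10*, a Wnt receptor (r = 0.92), and *Gnao1* (r = 0.92), and was the only member with a basal neuron gene from the lists used here among its closest 3. *H2-M10.4* was closest to *Bfsp2* (r = 0.94), *H2-M10.1* to *Alox12* (r = 0.89), *H2-M10.5* to *Hsp90ab1*, a chaperone (r = 0.89), *H2-M10.6* to the receptor pseudogene *Vmn2r-ps60* (r = 0.87), *H2-M10.3* to *Mipep* (r = 0.87) and *H2-M11* to *Ogg1* (r = 0.86).

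The partners of class I proteins and the basal neuron genes were examined beside the members. Of 11 class I and peptide loading genes, none differed between HR and Control lines at an adjusted p under 0.05 in edgeR, and 0 of 11 had an unadjusted p under 0.05. *B2m*, the common light chain, had a log2 fold change of 0.06 ± 0.12 (SE). Among the 8 lines, 5 of 11 passed, against 25.6% of all genes, with *Tap1* and *Tap2*, which carry peptides into the endoplasmic reticulum, and the classical heavy chain *H2-K1* having the smallest p (edgeR adjusted p = 0.00249, 0.0033 and 0.00254).

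Of 12 basal neuron genes, none passed between linetypes in edgeR, and 0 of 12 had an unadjusted p under 0.05. *Gnao1* had a log2 fold change of 0.07 ± 0.10 (SE) and *Gng8* of 0.08 ± 0.21, and *Vmn2r1* to *Vmn2r7*, the broadly expressed receptors of basal neurons, ranged from -0.16 to 0.16. Among lines, 5 of 12 passed, against 25.6% of all genes, and *Vmn2r1* had the smallest p (edgeR adjusted p = 0.00273).

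Of 15 other class Ib genes, 9 were abundant enough for the test between linetypes and none passed the adjusted threshold of edgeR. At an unadjusted p under 0.05 there were 2 of 9, against 3.3% of all genes. *H2-T10* had a log2 fold change of 1.25 ± 0.39 (SE; edgeR unadjusted p = 0.00543) and *H2-M2* of 1.64 ± 0.71 (edgeR unadjusted p = 0.0355). Both were higher in HR lines, in the direction opposite to *H2-M1* and *H2-M10.4*. Both also differed among lines (edgeR adjusted p = 0.00414 and 0.0013). The test between linetypes took the 2 libraries of a line as separate units. Values with lines as the units are not given for these 2 genes. Among lines, 7 of the 10 tested passed, against 25.6% of all genes, with *H2-Q10* (edgeR adjusted p = 0.000222) and *H2-Q2* (adjusted p = 0.000284) first.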

How the data were processed

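The VNO RNA of 3 pooled mice was sequenced per library. The authors aligned single-end reads of 75 bases to GRCm38/mm10 with STAR 2.6.1d, with no mismatch accepted and multi-mapping reads dropped. The counts per gene were used as deposited, and the counting tool, annotation and use of strand are not given in the sources used here. The RPKM values were computed by the authors for each sex separately, with Cufflinks named in the submitters' notes. Columns were matched to lines through sample titles.

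Members, lists and tests were chosen with earlier results of these data known. The genes named are the 9 members, basal neuron and class I partners, the 3 genes most like each member, and up to 3 of each list by smallest p. 

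Tests on counts used edgeR 4.0.16 in R 4.3.3 (TMM, filterByExpr with a minimum count of 10, quasi-likelihood test, Benjamini-Hochberg adjustment over all genes tested, threshold 0.05), with DESeq2 1.42.0 and limma 3.58.1 as alternatives, and in Python 3.11.15 with scipy 1.17.1. CPM were TMM-scaled, log2 CPM used a prior count of 2, and log2 RPKM a pseudocount of 0.1. Permutation tests were exact and two-sided. The pools of a line come from different mice, and p-values over libraries measure the spread between pools. Line numbers pair the male and the female library: deviations from group means correlated across genes from 0.321 to 0.708 in the 8 lines. The fits were tested on simulated data. This simulation did not hold line deviations, so it does not give the power of the test of linetypes. Counting error is small beside the spread over lines, and the 4 lines per linetype limit the precision. Sequence identity used GENCODE M21 transcripts and RefSeq promoter windows, with biopython 1.88.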

Additional observations from a re-analysis of the deposited data

Results flagged for a closer look

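In 36 sets of 4 libraries (9 members, each linetype and sex), 3 held a library far from the others, all from HR line 8, where chance gives about 1 in 20. *H2-M10.1* stood at 7.02 log2 CPM in the female library of line 8 (130.1 CPM), 0.85 above the next HR female library. In HR males, *H2-M10.4* stood at 6.94 (122.5 CPM), 0.67 above the next, and *H2-M10.5* at 7.62 (196.0 CPM), 1.14 above the next. The 3 values are not independent, since they come from 2 libraries of 1 line, and the high level was also seen in the other sex of line 8 for each gene.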

How the results depend on the processing

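With TMM or DESeq2's size factors, with and without the filter, in DESeq2, over line sums, with line as a random effect, and without single lines or the female library of Control line 5 (chosen after seeing the data), 0 of 9 members passed between linetypes. DESeq2 gave 30 genes (0.182%) in that comparison, and 17 genes passed without Control line 2. The count among lines was 5 to 9 without single lines, lowest at 5 without HR line 8. The number of neighbours told apart in the order of levels was 0 to 3 without single lines. With 7 lines the smallest sign-flip p is 0.0156, so a pair of differences in 8 tests cannot pass. In co-variation, 2 pairs (*H2-M1* with *H2-M9* and *H2-M10.5* with *H2-M11*) passed in males alone and 0 in females alone, both chosen after seeing the data.

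Signs turned for values near 0. Without single lines, the log2 fold change of HR over Control ran from -0.32 to 0.056 for *H2-M10.1*, from -0.20 to 0.16 for *H2-M10.3* and from -0.12 to 0.26 for *H2-M10.6*. Over line means the ranges were -0.30 to 0.032, -0.26 to 0.19 and -0.13 to 0.25. *H2-M1* in females against males ran from -0.054 to 0.082, with 0.0019 under the replicate block and 0.068 without the female library of Control line 5, and *H2-M10.3* from -0.060 to 0.087. *H2-M10.6* minus *H2-M9* was -0.039 in females alone and -0.067 to 0.14 without single lines. The replicate block changed no call of a member. The cause of these changes was not tested. Every member had at least 95 counts in every library, and the 4 lines per linetype limit the precision.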
